A study of Mus musculus with 4 samples.

Results

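Insulin and amylin are the main secreted hormones of the pancreatic beta cell, and their mRNAs come from 3 mouse genes, Ins1, Ins2 and Iapp. These were taken by their symbols from the 32285 genes in the deposited matrices, so 3 of 32285 genes are described here, and all 3 had UMIs in every library. A UMI (unique molecular identifier) marks 1 captured mRNA molecule, counted near its 3′ end, so levels of different genes can be set side by side without scaling for length. The data are single-cell RNA-seq libraries of islets from wild-type male C57BL6J mice aged 8 weeks, cultured for 24 h in medium with 3.9 or 11.1 mM glucose. The 4 groups, 1 library each, were 1 mM imeglimin at 11.1 mM glucose, DMSO vehicle at 11.1 mM, 1 mM imeglimin at 3.9 mM and DMSO vehicle at 3.9 mM. Imeglimin is an oral glucose-lowering drug. Islets were dispersed with Accutase before capture, and nothing in the labels says how many mice gave the islets of a library. As each condition is 1 library, no difference could be set against a spread between replicates, no test between conditions was made, and the same holds for any order of the libraries. Intervals cover counting error only.

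Mice carry a pair of insulin genes. Ins2 has the structure of the single insulin gene of most mammals, while Ins1 arose as a copy of it through an RNA intermediate. Both are translated into preproinsulin, which is folded in the endoplasmic reticulum, cut in secretory granules and stored with zinc. Iapp encodes amylin, which is packed into the same granules and released with insulin, and which delta cells of rodents are also known to make. Glucose is known to raise both the transcription of the insulin genes and the stability of their mRNA.

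In the GENCODE vM21 annotation of GRCm38, Ins1 (ENSMUSG00000035804) lies on the plus strand at chr19:52264297-52265476 and Iapp (ENSMUSG00000041681) on the plus strand at chr6:142298423-142303961. Ins2 (ENSMUSG00000000215) lies on the minus strand at chr7:142678656-142743381. That annotated span covers 64726 bases over all its transcripts, while the Ins2 transcript used here has 478 bases. No exon of another annotated gene shares a base with an exon of the 3 genes on either strand. The insulin genes are near-identical paralogs, so reads could be split between them. Aligned over 333 columns, their coding sequences matched at 303 positions (91.0%), with 24 differing bases and 6 gapped columns. The longest run common to both transcripts had 56 bases. No stretch of 90 bases occurred in both, while 7 stretches of 50 bases did. The read length is not given in the sources used here, so some reads from the coding end may fit both genes. The last 90 coding bases, next to the region that 3′ libraries sample, show how alike the genes are. Capitals mark the 4 positions that differ, and both sequences are read from the annotated transcripts.
Ins1: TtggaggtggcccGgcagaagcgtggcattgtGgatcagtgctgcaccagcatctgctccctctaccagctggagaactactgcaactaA
Ins2: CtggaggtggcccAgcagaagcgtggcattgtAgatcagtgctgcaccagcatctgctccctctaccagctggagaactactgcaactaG

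The 250 bases before the RefSeq start site are shown for Ins1 and Iapp, whose promoters were in the table used here (GRCm38.p6), since both genes were higher at 11.1 mM glucose. Motifs were sought on both strands. Capitals mark CATCTG, the E-box core of insulin promoters that basic helix-loop-helix factors such as NeuroD1 bind, TAAT, the core bound by homeodomain factors such as Pdx1, and TATAA.
Ins1, chr19:52264047-52264296, plus strand: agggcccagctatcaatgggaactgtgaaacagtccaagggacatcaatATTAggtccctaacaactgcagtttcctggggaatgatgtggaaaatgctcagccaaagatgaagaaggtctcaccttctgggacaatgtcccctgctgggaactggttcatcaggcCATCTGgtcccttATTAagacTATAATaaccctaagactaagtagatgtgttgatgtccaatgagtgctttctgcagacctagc
Iapp, chr6:142298175-142298424, plus strand: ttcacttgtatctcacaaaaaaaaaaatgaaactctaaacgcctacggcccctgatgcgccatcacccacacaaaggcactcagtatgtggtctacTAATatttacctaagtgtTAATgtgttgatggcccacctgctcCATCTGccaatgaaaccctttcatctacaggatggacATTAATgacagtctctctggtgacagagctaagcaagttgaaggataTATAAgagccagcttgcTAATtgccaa
Each window held 1 CATCTG. Ins1 held 3 TAAT matches and Iapp held 5, and each held 1 TATAA. In Ins1 the TATAA match overlaps a TAAT match, and in Iapp a pair of TAAT matches on opposite strands overlap. The TATAA match lies 63 to 59 bases before the annotated start in Ins1 and 27 to 23 bases before it in Iapp. Whether either acts as a TATA box was not tested. Bases after the annotated start were not searched, so the counts need not cover the whole promoter. In windows of the same length before 32851 RefSeq starts, CATCTG occurred in 14.4%, TAAT in 54.9%, TATAA in 22.8% and all 3 in 3.01%. These matches describe the sequence and do not show binding.

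In the order imeglimin at 11.1 mM, vehicle at 11.1 mM, imeglimin at 3.9 mM and vehicle at 3.9 mM, the libraries held 8935, 8073, 10134 and 8565 barcodes. Their totals ran from 91245564 to 106092232 UMIs. Pairs of libraries shared 15 to 24 barcodes. After limits on UMIs, genes and mitochondrial share, 8427, 7444, 8755 and 7166 cells remained in the same order, and 5654, 4664, 4407 and 4152 of them were beta-like. Clusters were drawn and named without the 3 genes, so that class does not rest on them. Of 13 beta-cell markers, 12 or 13 exceeded 20 CPM (UMI counts scaled to a common total) in the beta-like sums. There 8 endothelial markers summed to 5.10 to 6.61 CPM and 8 stromal markers to 0.187 to 1.01 CPM, with 2, 0, 5 and 1 of the stromal markers and no endothelial marker at 0. The 8 macrophage markers summed to 15.8, 44.8, 19.2 and 54.5 CPM, with 1, 0, 1 and 1 at 0, lower with imeglimin at both glucose levels, and their part in the results was not tested. The other hormones took at most 0.0747% (Gcg) of beta-like UMIs. Clusters were named with these same markers, so their levels describe the beta-like cells and do not test the naming. Mafa, Pdx1, Nkx6-1, Slc30a8, Ero1lb and Prlr, which are described below, are among the 13 beta-cell markers. Clusters left unnamed held 607, 1097, 2047 and 1563 cells. Among them, 495 cells with vehicle at 11.1 mM and 401 with vehicle at 3.9 mM scored highest as beta. They were left out because the B-cell marker Cd79a was among their leading genes. A cluster of 929 cells with vehicle at 3.9 mM, also led by Cd79a, stayed beta-like, with 4 beta-cell markers among its leading genes. In the imeglimin 3.9 mM library 932 of the unnamed cells had a median of 1512.5 UMIs and 11.8% mitochondrial UMIs. In the vehicle 3.9 mM library 354 unnamed cells had 2109 UMIs and 14.2%. The doublet caller marked no cell and is taken not to have worked.

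Ins2 was the most abundant mRNA of beta-like cells in every library. It took 21.2% of their UMIs with imeglimin at 11.1 mM, 23.2% with vehicle at 11.1 mM, 17.8% with imeglimin at 3.9 mM and 9.44% with vehicle at 3.9 mM. Ins1 took 7.51%, 10.95%, 2.37% and 1.43% in the same order. Iapp took 9.33%, 9.38%, 5.39% and 6.38%. Iapp therefore ranked above Ins1 in 3 libraries and below it with vehicle at 11.1 mM. Together the 3 genes took 38.0%, 43.5%, 25.6% and 17.2% of beta-like UMIs. The plot of shares per cell gives the spread behind these sums.

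**Figure D1:**
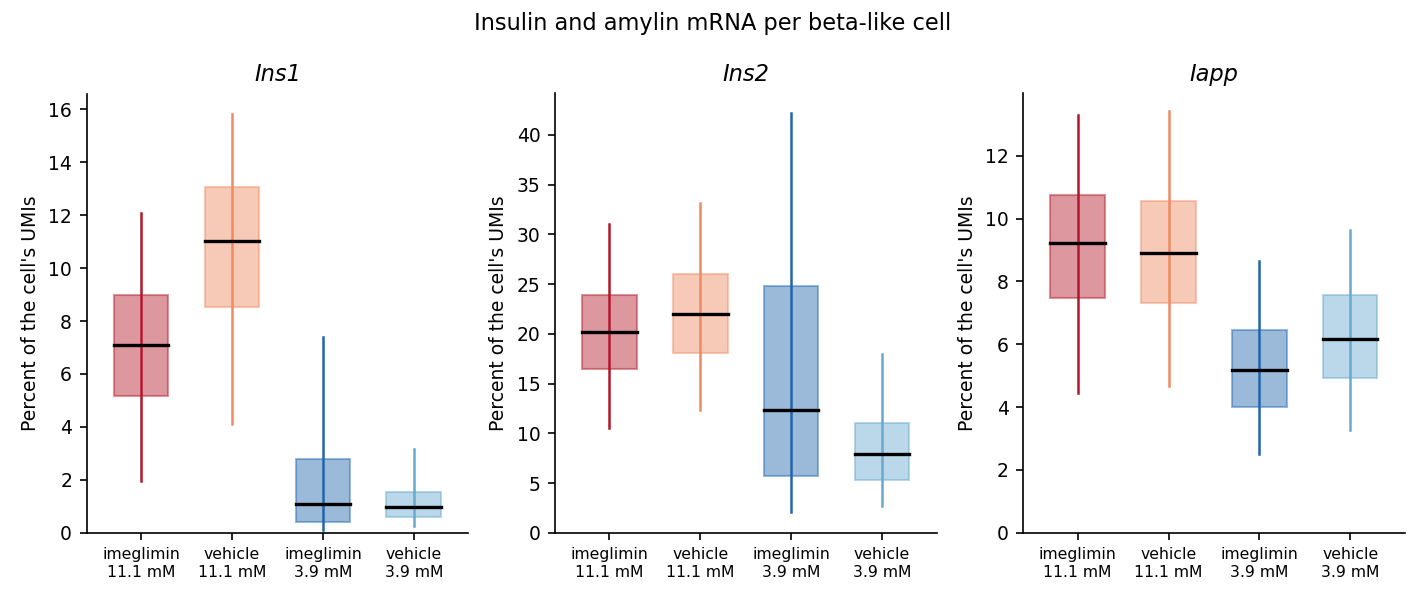
Percent of each beta-like cell's UMIs that came from Ins1, Ins2 and Iapp, by library. Boxes span the 25th to 75th percentile of cells, black lines mark medians and whiskers reach the 5th and 95th percentile; Ins2 with imeglimin at 3.9 mM has the widest box, with quartiles of 5.67% and 24.8%.

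Every beta-like cell had UMIs of Ins2 and of Iapp, and 1 cell in each imeglimin library had none of Ins1. The median cell held 908 Ins1 UMIs with imeglimin at 11.1 mM, 1467 with vehicle at 11.1 mM, 111 with imeglimin at 3.9 mM and 118 with vehicle at 3.9 mM. Its Ins2 UMIs were 2582, 2918, 1241 and 955, and its Iapp UMIs 1169, 1172, 529 and 750. Counts this high leave little counting error in the median cell, but the 10th percentile cell with imeglimin at 3.9 mM held 17 Ins1 UMIs. The median depth of beta-like cells was 12648, 13088, 10131 and 12020 UMIs, and their median mitochondrial share 2.32%, 2.52%, 1.89% and 2.31%.

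The first comparison asked how imeglimin and vehicle differ at 11.1 mM glucose. Ins1 was lower with imeglimin, at 83002 CPM against 118740 CPM with vehicle, after scaling by TMM (trimmed mean of M-values), which sets the bulk of genes alike. The log2 ratio was -0.52 (95% interval -0.518 to -0.515), or 0.699-fold. Ins2 was at 233783 CPM with imeglimin and 251120 CPM with vehicle, a log2 ratio of -0.10. Iapp was at 103107 CPM with imeglimin and 101717 CPM with vehicle, a log2 ratio of 0.02. None of the 3 genes was 1.5-fold apart, against 8.98% of 5625 genes compared (4.85% higher and 4.12% lower). Ins1 lay at percentile 5.08 of all log2 ratios, whose median was 0.10.

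Ins1 sat close to the 1.5-fold limit. Its log2 ratio was -0.69 when the 3 genes and the mitochondrial genes were left out of the total, -0.60 after thinning each cell to 3000 UMIs and -0.61 for the median cell after TMM scaling, each past the limit. The lower Ins1 level was also present at matched depth, though the gap was small in the shallowest cells. Cells of 1000 to 5000 UMIs held 6.76% Ins1 with imeglimin and 7.61% with vehicle. Cells of 5000 to 10000 UMIs held 5.61% Ins1 with imeglimin and 9.57% with vehicle, and cells of 10000 to 20000 UMIs held 7.69% and 11.1%, and deeper cells held 8.07% and 11.1%. It was present in each bin of mitochondrial share too, with 8.50% against 10.8% below 2% mitochondrial UMIs and 6.92% against 11.2% from 2% to 5%. Insulin of both genes exceeded 20% of UMIs in 82.4% of cells with imeglimin and 92.7% with vehicle, and exceeded 40% in 6.84% and 20.4%.

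At 3.9 mM glucose both insulin genes were higher with imeglimin. Ins2 was at 180645 CPM with imeglimin and 77772 CPM with vehicle, a log2 ratio of 1.22 (95% interval 1.214 to 1.217). Ins1 was at 24072 CPM with imeglimin and 11767 CPM with vehicle, a log2 ratio of 1.03 (95% interval 1.029 to 1.037). Iapp was at 54693 CPM with imeglimin and 52529 CPM with vehicle, a log2 ratio of 0.06. So 2 of 3 genes, both higher, were 1.5-fold apart, against 22.5% of 6017 genes compared, 12% higher and 10.5% lower. Ins2 lay at percentile 98.8 of all log2 ratios and Ins1 at 97.9.

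The sums at 3.9 mM do not describe a typical cell, because the imeglimin library was uneven. Ins1 took 1.07% of UMIs in the median cell with imeglimin and 0.968% with vehicle, and its log2 ratio for the median cell after TMM scaling was 0.44, no longer 1.5-fold. For Ins2 the median cell held 12.4% with imeglimin and 7.89% with vehicle, a log2 ratio of 0.95. The 90th percentile cell held 13.0 times the insulin share of the 10th percentile cell with imeglimin, and 4.08 times with vehicle. At 11.1 mM this spread was 2.21 with imeglimin and 2.04 with vehicle. The Iapp share showed no such gap, with 2.53 times for imeglimin and 2.28 times for vehicle at 3.9 mM. Insulin was under 5% of UMIs in 19.3% of cells with imeglimin and 15.7% with vehicle, and over 20% in 38.0% and 5.54%.

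The unevenness followed the clusters of the imeglimin 3.9 mM library, as the plot of clusters shows. Its 7 beta-like clusters of at least 50 cells had median insulin shares of 4.67% to 63.1%, a 13.5-fold range, while the 8 clusters with vehicle at 3.9 mM ran from 7.74% to 11.4%. A cluster of 1128 cells led by Car15, a carbonic anhydrase, had the lowest insulin share and the highest Iapp to insulin ratio, 96.3 Iapp UMIs per 100 insulin UMIs. A cluster of 752 cells led by Derl3, a factor of endoplasmic reticulum-associated degradation, held 39.2% insulin in the median cell. It made up 17.1% of the beta-like cells but gave 34.5% of their Ins1 UMIs and 29.8% of their Ins2 UMIs. A cluster of 77 cells led by G6pc2, which encodes the islet glucose-6-phosphatase, held 63.1% insulin, gave 12.1% of all Ins1 UMIs, and had 25.9% Ins1 among its insulin UMIs. Median Iapp shares of the same 7 clusters ran from 4.73% to 5.61%. At 11.1 mM median insulin shares ran from 18.97% to 30.3% over 9 imeglimin clusters and from 29.3% to 41.8% over 7 vehicle clusters.

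**Figure D2:**
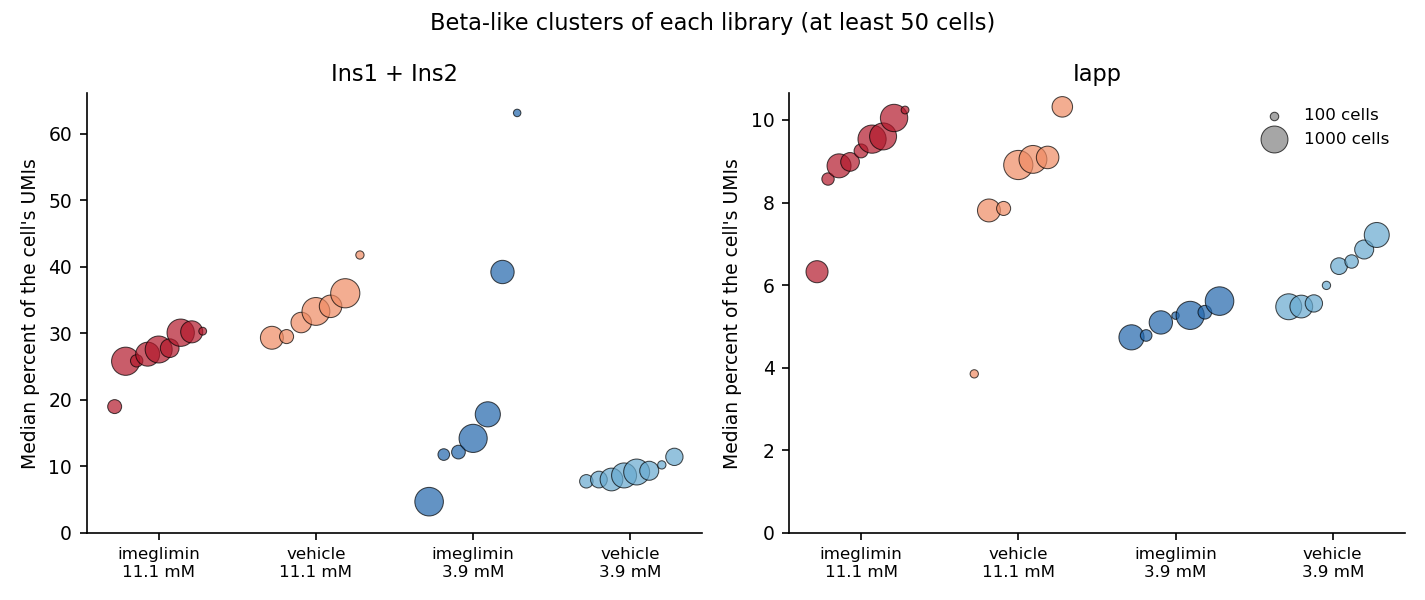
Median percent of UMIs from insulin (Ins1 plus Ins2) and from Iapp in each beta-like cluster of at least 50 cells; 1 circle is 1 cluster, its area grows with the number of cells, and clusters are ordered by value within a library. Insulin spans 4.67% to 63.1% with imeglimin at 3.9 mM, while Iapp there stays between 4.73% and 5.61%.

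Depth and mitochondrial share were set beside this difference. Ins2 was higher with imeglimin in every depth bin at 3.9 mM, with 14.1% against 7.24% of UMIs in cells of 5000 to 10000 UMIs and 18.4% against 9.57% in cells of 10000 to 20000 UMIs. Below 2% mitochondrial UMIs it took 20.8% with imeglimin and 11.1% with vehicle, and from 2% to 5% it took 13.4% and 8.48%. Over all kept cells, named or not, insulin took 14.3% of UMIs with imeglimin and 8.60% with vehicle.

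The comparison of glucose asked how 11.1 mM differs from 3.9 mM under each treatment. With imeglimin 2 of 3 genes, Ins1 and Iapp, were 1.5-fold higher at 11.1 mM, against 39.2% of 6045 genes 1.5-fold apart, 14.9% higher and 24.3% lower. Ins1 had a log2 ratio of 1.79, or 3.45-fold, Iapp 0.91, or 1.89-fold, and Ins2 0.37, or 1.29-fold. For the median cell Ins2 had 0.83 and was past the limit too. With vehicle all 3 genes were higher at 11.1 mM, against 29.5% of 5925 genes 1.5-fold apart, 9.67% higher and 19.9% lower. Ins1 had a log2 ratio of 3.34, or 10.1-fold, and only 7 of the genes compared had a higher ratio. Ins2 had a log2 ratio of 1.69, or 3.23-fold, and Iapp 0.95, or 1.94-fold. With plain CPM the Iapp ratio was 0.56, under the limit. The median log2 ratio of all genes compared was -0.14 with imeglimin and -0.16 with vehicle. Iapp thus had like ratios under the treatments, while both insulin genes had a smaller one with imeglimin. The difference between the treatments was not tested.

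A member's share depends on how much of the cell's RNA the others take, so each was also set against the UMIs of all other genes in the same cell. Iapp then had a median of 14.6 UMIs per 100 UMIs of other genes for imeglimin and 15.7 for vehicle at 11.1 mM, and 6.91 and 7.35 at 3.9 mM. For Ins1 the medians were 11.3 for imeglimin and 19.2 for vehicle at 11.1 mM, and 1.32 and 1.15 at 3.9 mM. For Ins2 they were 32.1 and 38.0 at 11.1 mM, and 15.3 and 9.34 at 3.9 mM. On this scale Iapp was slightly lower with imeglimin at both glucose levels, where TMM gave ratios slightly above 0.

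The balance of the insulin genes differed most with glucose. Ins1 made up 26.2% of insulin UMIs with imeglimin at 11.1 mM, 32.1% with vehicle at 11.1 mM, 11.8% with imeglimin at 3.9 mM and 13.1% with vehicle at 3.9 mM. These ratios need no scaling between libraries. In UMIs per Ins2 UMI, Ins1 was at 0.355 and 0.473 at 11.1 mM and at 0.133 and 0.151 at 3.9 mM, imeglimin first in each pair. Within single cells the median Ins1 share was 26.1% for imeglimin and 33.2% for vehicle at 11.1 mM, and 8.68% and 10.8% at 3.9 mM. From the 25th to the 75th percentile of cells it ran from 21.3% to 29.8% for imeglimin and from 29.2% to 36.3% for vehicle at 11.1 mM, and from 6.51% to 11.01% and 8.18% to 14.7% at 3.9 mM. Between glucose levels these ranges did not overlap under either treatment. Ins1 outnumbered Ins2 in 6, 9, 0 and 6 cells of the 4 libraries.

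Iapp per insulin UMI ordered the libraries otherwise. There were 32.5 Iapp UMIs per 100 insulin UMIs with imeglimin at 11.1 mM, 27.5 with vehicle at 11.1 mM, 26.7 with imeglimin at 3.9 mM and 58.7 with vehicle at 3.9 mM. The ratio in the median cell was 34.0, 26.9, 35.9 and 69.6. It was therefore lower with imeglimin at 3.9 mM, and higher with imeglimin at 11.1 mM. From the 25th to the 75th percentile of cells it spanned 17.3 to 86.6 for imeglimin and 44.9 to 106.9 for vehicle at 3.9 mM, so the imeglimin cells were the more spread on a log scale. Iapp outnumbered insulin in 22.0% of cells for imeglimin and 28.3% for vehicle at 3.9 mM, and in 2.26% and 0.472% at 11.1 mM.

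**Figure D3:**
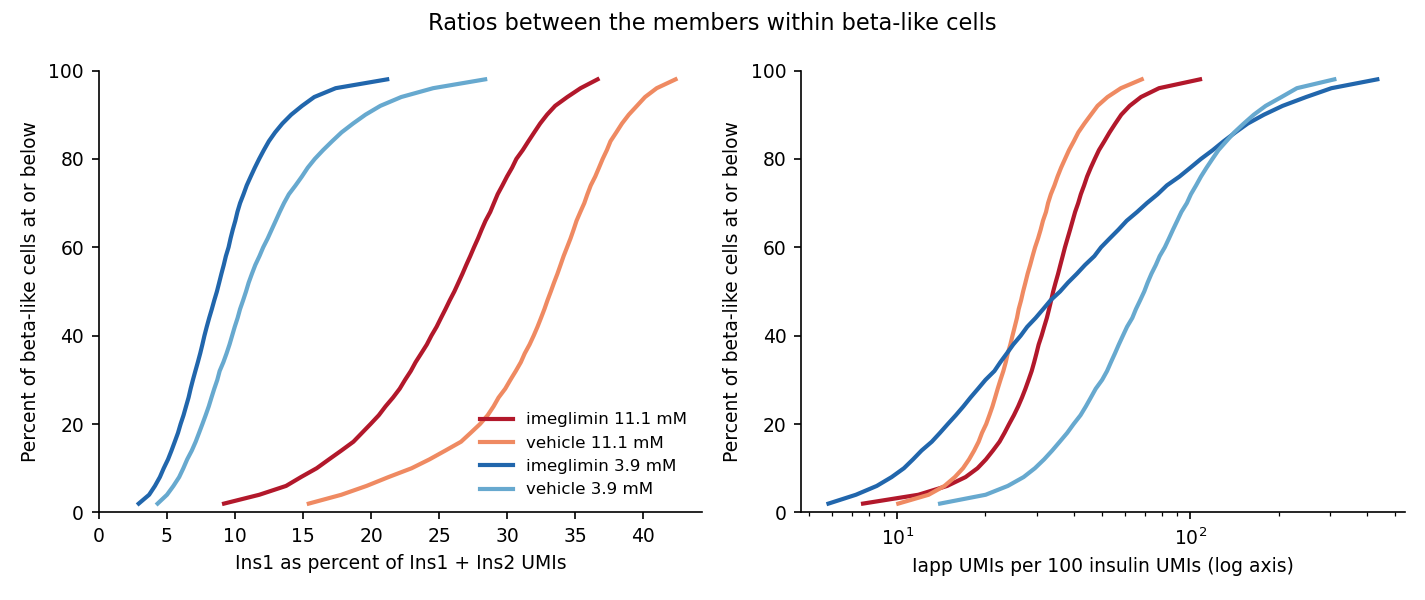
Percent of beta-like cells at or below each value of the Ins1 share of insulin UMIs (left) and of Iapp UMIs per 100 insulin UMIs (right, log axis), 1 line per library. Median Ins1 shares are 26.1% and 33.2% at 11.1 mM and 8.68% and 10.8% at 3.9 mM, with imeglimin and vehicle in that order.

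Cells were then grouped by their insulin share, so that libraries could be compared at like insulin content. Among cells with 10% to 20% insulin, Ins1 made up 22.6% of insulin UMIs for imeglimin and 26.4% for vehicle at 11.1 mM, and 8.48% and 11.9% at 3.9 mM. Among cells with 20% to 30% insulin it made up 25.9% and 32.1% at 11.1 mM, and 9.92% and 13.9% at 3.9 mM. In all 6 bins at both glucose levels the Ins1 share was lower with imeglimin than with vehicle at the same glucose. With imeglimin at 3.9 mM the Ins1 share was 6.66% in cells under 5% insulin and 16.3% in cells over 40%. The vehicle 3.9 mM library had 25 cells from 30% to 40% and 37 cells over 40%, where Ins1 made up 19.3% and 26.6%. Iapp per 100 UMIs of other genes was 12.6 with imeglimin and 11.5 with vehicle in the 10% to 20% bin at 11.1 mM, and 6.64 and 7.88 in that bin at 3.9 mM. At 11.1 mM the order turned with insulin content, with 14.9 for imeglimin and 14.8 for vehicle from 20% to 30%, 16.5 and 17.2 from 30% to 40%, and 15.5 and 20.1 over 40%. The 42 vehicle cells under 5% insulin at 11.1 mM had 2.06 and a median of 1468 UMIs.

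**Figure D4:**
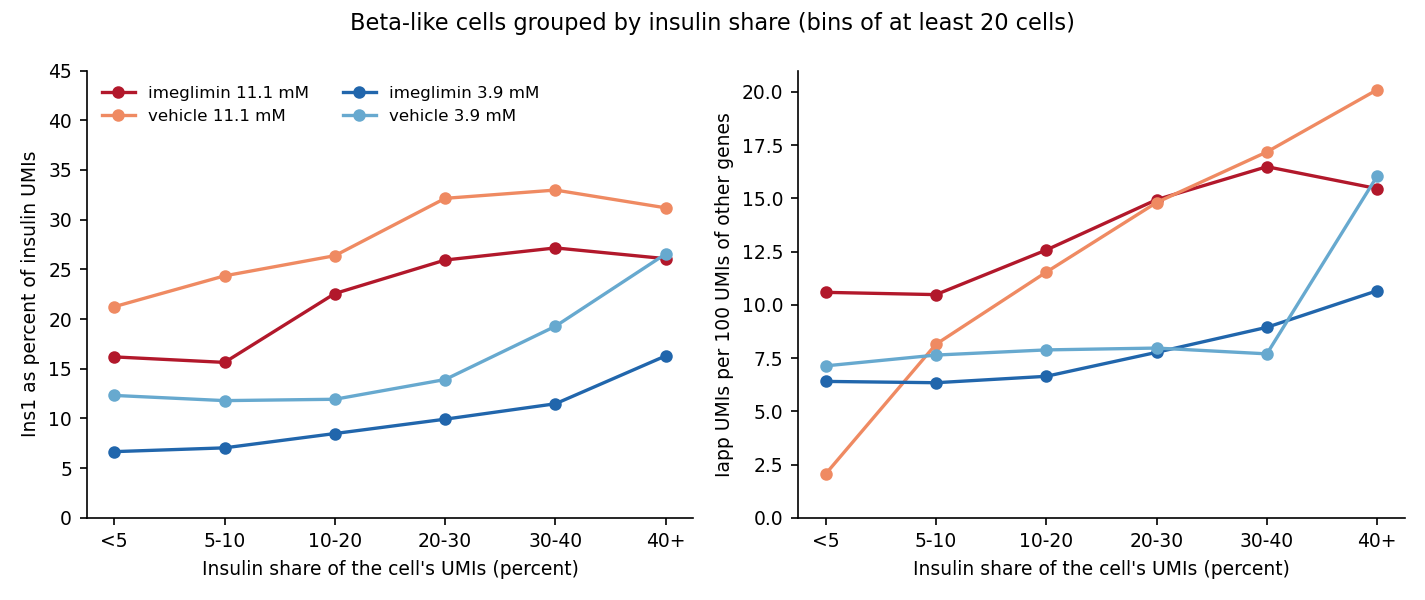
Ins1 as percent of insulin UMIs (left) and Iapp UMIs per 100 UMIs of other genes (right) in beta-like cells binned by the insulin share of their UMIs, 1 line per library, bins of at least 20 cells. The imeglimin line lies below the vehicle line of the same glucose in every bin on the left.

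Across cells thinned to 3000 UMIs, Ins1 and Ins2 went together. Spearman's rho was 0.63 over 5557 cells for imeglimin and 0.61 over 4577 cells for vehicle at 11.1 mM, and 0.96 over 4339 cells and 0.69 over 4140 cells at 3.9 mM. The genes share each cell's library, and a fixed total pushes large shares apart. Ins1 and Iapp had rho of -0.02 and 0.05 at 11.1 mM and of -0.15 and -0.07 at 3.9 mM, imeglimin first in each pair. Ins2 and Iapp had rho of -0.10 and 0.00 at 11.1 mM and of -0.16 and -0.10 at 3.9 mM. Values this near 0 are not read as a relation. The Ins1 share and the insulin total of a cell had rho of 0.21 and 0.01 at 11.1 mM, and of 0.59 and 0.12 at 3.9 mM.

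Outside beta-like cells, insulin UMIs varied by class, and Iapp was abundant in delta-like cells. Over all cells of a class, insulin took 0.554% to 2.07% of UMIs in delta-like and 2.29% to 7.65% in endothelial-like cells. Acinar-like cells held 24.3% for imeglimin (41 cells) and 32.1% for vehicle (56 cells) at 11.1 mM. With vehicle at 3.9 mM they held 1.02% (133 cells). Cells with insulin under 5% of UMIs were then used, so that cells with a beta-like profile mixed in did not set the values. Low insulin in them is thus set in part by that limit. In delta-like cells, led by the somatostatin gene Sst, Iapp took 6.995% of UMIs with imeglimin at 11.1 mM (284 cells), 5.55% with vehicle at 11.1 mM (316 cells), 4.51% with imeglimin at 3.9 mM (439 cells) and 4.53% with vehicle at 3.9 mM (251 cells). Insulin took 0.298%, 0.426%, 0.867% and 0.427% there. These cells thus had 2351, 1303, 520 and 1061 Iapp UMIs per 100 insulin UMIs, where beta-like cells, with no such limit, had 26.7 to 58.7. The limit on insulin raises this ratio. Over all delta-like cells it was 350, 451, 438 and 820, another order of the libraries. Iapp exceeded 1% of UMIs in 96.1% to 99.6% of the delta-like cells under 5% insulin. Their median cell held 6.73% Iapp for imeglimin and 5.28% for vehicle at 11.1 mM, and 4.30% and 4.22% at 3.9 mM. Iapp in delta-like cells was thus higher at 11.1 mM than at 3.9 mM, as it was in beta-like cells.

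In alpha-like cells Iapp took 0.582% of UMIs for imeglimin and 0.307% for vehicle at 11.1 mM, and 0.591% and 0.408% at 3.9 mM. Iapp exceeded 1% of UMIs in 14.99% for imeglimin and 3.35% for vehicle at 11.1 mM, and in 14.1% and 4.82% at 3.9 mM. The same measure in endothelial-like cells was 0.783% and 3.47% at 11.1 mM, and 4.75% and 7.14% at 3.9 mM. The endothelial-like values rest on few cells, 3 of 383 and 7 of 202 at 11.1 mM, and 17 of 358 and 11 of 154 at 3.9 mM. The alpha-like counts were 125 of 834 and 21 of 626 at 11.1 mM, and 148 of 1049 and 30 of 622 at 3.9 mM. With vehicle the alpha-like shares were at or below the endothelial-like ones. With imeglimin at 3.9 mM macrophage-like and stromal-like cells had 11.1% (14 of 126 cells) and 10.8% (14 of 130 cells). The median cell gave another order, with 0.270% Iapp in alpha-like and 0.112% in endothelial-like cells for imeglimin at 11.1 mM, and 0.206% and 0.0924% for vehicle at 11.1 mM. At 3.9 mM the medians were 0.347% and 0.274% for imeglimin, and 0.290% and 0.205% for vehicle. How much of the alpha-like Iapp was free RNA was not tested. Median depths of the alpha-like cells were 5759, 5903, 6927 and 7510.5 UMIs, and of the endothelial-like cells 2843, 5516, 3982 and 6058. In pp-like cells, named at 11.1 mM alone, Iapp took 0.932% of summed UMIs with imeglimin and 0.343% with vehicle, but 0.208% and 0.183% in the median cell, and it exceeded 1% in 22.9% and 3.30% of cells. Those over 1% were 38 of 166 pp-like cells with imeglimin and 3 of 91 with vehicle. The endothelial-like median of 0.112% and 0.0924% is the background beside the pp-like medians.

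**Figure D5:**
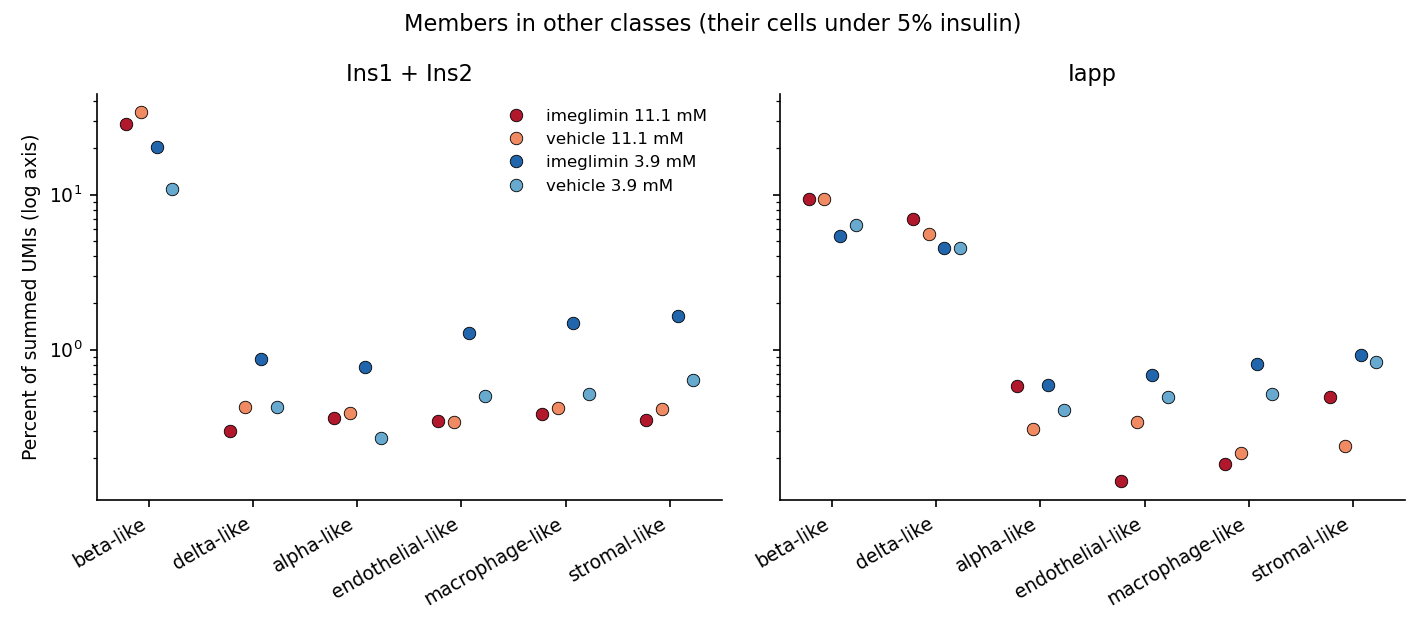
Percent of summed UMIs (log axis) from insulin (left) and Iapp (right) in each class, 1 point per library; classes other than beta-like hold only cells with under 5% insulin. Iapp in delta-like cells is 4.51% to 6.995%, near the 5.39% to 9.38% of beta-like cells, while insulin there is under 1%.

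Endothelial-, macrophage- and stromal-like cells, which are not known to make insulin, show how much free RNA each library carried. Their median cell held 0.383% insulin with imeglimin at 11.1 mM (812 cells), 0.362% with vehicle at 11.1 mM (536 cells), 1.56% with imeglimin at 3.9 mM (744 cells) and 0.360% with vehicle at 3.9 mM (443 cells). In UMIs the median cell had 10 of Ins2 for imeglimin and 13 for vehicle at 11.1 mM, and 43 and 18 at 3.9 mM, at median depths of 3358.5, 4937, 3580.5 and 6862 UMIs. Background insulin was thus highest in the imeglimin 3.9 mM library. Its part in the higher insulin of beta-like cells there was not tested beyond a subtraction, after which the Ins2 log2 ratio at 3.9 mM was 1.29. The median beta-like cell had 66.8, 80.5, 8.89 and 24.5 times the Ins2 share of the median non-endocrine cell. After thinning to 1000 UMIs, 59.5% of endothelial-like cells for imeglimin and 62.5% for vehicle at 11.1 mM had an Ins1 UMI, and 69.8% and 37.4% at 3.9 mM, where beta-like cells had one in 99.8% with each treatment at 11.1 mM, and in 95.9% for imeglimin and 98.4% for vehicle at 3.9 mM. Insulin was at 5% of UMIs or more in 8.37%, 11.8%, 17.5% and 10.6% of non-endocrine cells, and doublets among these were not removed.

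In the non-endocrine cells under 5% insulin, Ins1 made up 22.6% of insulin UMIs for imeglimin and 26.1% for vehicle at 11.1 mM, and 9.38% and 10.8% at 3.9 mM. The order of the libraries was that of beta-like cells, at a lower Ins1 share in each. Summed over these cells there were 70.8 Iapp UMIs per 100 insulin UMIs for imeglimin and 74.9 for vehicle at 11.1 mM, and 54.1 and 112 at 3.9 mM. The medians gave less Iapp per insulin than these sums. Over all non-endocrine cells the median cell held 0.134% Iapp beside 0.383% insulin for imeglimin and 0.118% beside 0.362% for vehicle at 11.1 mM, and 0.394% beside 1.56% and 0.266% beside 0.360% at 3.9 mM.

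The transcription factors known to act on the insulin genes were followed as a list of 19. At 11.1 against 3.9 mM, with imeglimin 6 of 14 measured were 1.5-fold higher and 2 lower, and with vehicle 7 of 16 were higher and 2 lower. Of all genes compared 14.9% were higher and 24.3% lower with imeglimin, and 9.67% and 19.9% with vehicle. Mafa, a glucose-responsive activator of insulin genes, had log2 ratios of 2.74 with imeglimin and 2.65 with vehicle. Pdx1, the homeodomain factor that binds their A-boxes, had 1.87 with imeglimin and 1.98 with vehicle. Against vehicle, imeglimin had 0 of 15 factors higher and 5 lower at 11.1 mM, and 1 of 16 higher and 4 lower at 3.9 mM. Of all genes compared 4.85% were higher and 4.12% lower at 11.1 mM, and 12% and 10.5% at 3.9 mM. The median log2 ratio of the list was -0.36 and -0.33, beside 0.10 and 0.09 over all genes compared. Mafa was at 302 CPM for imeglimin and 525 CPM for vehicle at 11.1 mM, and at 45.3 and 83.4 CPM at 3.9 mM, log2 ratios of -0.80 and -0.88. Mlxipl, the gene of ChREBP, a factor that responds to glucose, had log2 ratios of -2.08 and -1.50, at 18.5 CPM with imeglimin and 78.6 CPM with vehicle at 11.1 mM. Nkx6-1 was the factor that was higher at 3.9 mM, at 364 CPM with imeglimin and 155 CPM with vehicle. At 3.9 mM, where both insulin mRNAs were higher with imeglimin, Mafa was thus lower and Nkx6-1 higher. A link of any factor to the insulin mRNAs was not tested.

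Genes of the route that proinsulin takes were more often 1.5-fold higher than lower at 11.1 mM. Of 21 genes for insulin mRNA binding and secretory translation, 8 were higher and 1 lower with imeglimin, and 5 and 0 with vehicle, with medians of 0.30 and 0.29 beside -0.14 and -0.16 over all genes. The shares over all genes were 14.9% higher and 24.3% lower with imeglimin, and 9.67% and 19.9% with vehicle. Sec61a1, the channel subunit through which preproinsulin enters the endoplasmic reticulum, had log2 ratios of 1.68 with imeglimin and 1.11 with vehicle. Against vehicle, imeglimin had 0 higher and 1 lower at 11.1 mM, and 0 higher and 2 lower at 3.9 mM. The lower counts are near the 4.12% and 10.5% of all genes. The 1 at 11.1 mM was Elavl4, an RNA-binding protein known to hold back insulin translation, with a log2 ratio of -0.90.

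Of 14 measured proinsulin folding genes, 6 were higher and 0 lower at 11.1 mM with imeglimin, and 4 and 1 with vehicle, with medians of 0.42 and 0.15. Beside these stand 14.9% of all genes higher and 24.3% lower with imeglimin, and 9.67% and 19.9% with vehicle. Ero1lb, the oxidase of the pancreatic endoplasmic reticulum, was at 344 CPM for imeglimin and 649 CPM for vehicle at 11.1 mM, a log2 ratio of -0.91, and it was the gene lower in that comparison. Hspa5, the chaperone BiP, was the gene higher, with 0.66. At 3.9 mM imeglimin had 1 gene higher, the chaperone Hsp90b1 with 0.86, and 2 lower, Ero1l with -1.14 and Qsox1 with -0.65. Either way, 2 of 14 genes were apart at 11.1 mM and 3 of 14 at 3.9 mM, beside 8.98% and 22.5% of all genes, and at 3.9 mM this is near the share of all genes.

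Of 7 measured prohormone processing genes, 3 were higher at 11.1 mM under each treatment, with 1 lower with imeglimin and 0 with vehicle, and medians of -0.13 and 0.32. For this list and the granule list, the shares of all genes between glucose levels were 14.9% higher and 24.3% lower with imeglimin. With vehicle they were 9.67% and 19.9%. Pcsk1, a convertase that cuts proinsulin, had log2 ratios of 1.49 with imeglimin and 1.54 with vehicle. Pam, which amidates amylin, had 2.06 with imeglimin and 1.30 with vehicle. Between imeglimin and vehicle, Pam was the gene higher at 11.1 mM, at 1238 CPM with imeglimin and 696 CPM with vehicle, and no gene was 1.5-fold apart at 3.9 mM, beside 8.98% and 22.5% of all genes at the 2 glucose levels. Of 12 granule storage genes, 6 were higher for imeglimin and 7 for vehicle at 11.1 mM, and 0 lower in both, with medians of 0.58 and 0.67. Imeglimin against vehicle gave 2 higher and 3 lower of 12 at each glucose level, beside 8.98% of all genes apart at 11.1 mM and 22.5% at 3.9 mM. Vgf, a granule peptide precursor, was higher at both with log2 ratios of 1.70 at 11.1 mM and 1.40 at 3.9 mM, and Slc30a8, the zinc transporter of insulin granules, was lower at 11.1 mM with -0.94. Of 10 receptor, signalling and breakdown genes 4 were measured. The insulin receptor gene Insr had log2 ratios of -0.05 with imeglimin and -0.41 with vehicle between glucose levels, and imeglimin against vehicle had 2 genes higher at 11.1 mM, and 1 higher and 1 lower at 3.9 mM. Among all genes 4.85% were higher at 11.1 mM, and 12% were higher and 10.5% lower at 3.9 mM. Igf1r, the receptor gene for insulin-like growth factor, was at 792 CPM for imeglimin and 381 CPM for vehicle at 11.1 mM, and at 142 and 296 CPM at 3.9 mM.

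Over the 4 beta-like sums, the genes most like each member in pattern were named by the smallest root mean square difference of centred log2 CPM among 4455 genes. For Ins1 these were Prlr, Pak3, Srsf3, Tuba1a and Cltrn, with Prlr, the prolactin receptor gene, at 0.31. Prlr was at 552 CPM for imeglimin and 622 CPM for vehicle at 11.1 mM, and at 120 and 101 CPM at 3.9 mM. For Ins2 they were Ppy, Akap13, Selenok, Btg2 and Ppat, from 0.13 to 0.21. For Iapp they were Tceal8, mt-Nd4, mt-Nd4l, mt-Cytb and Srsf2, from 0.02 to 0.05. Ppy, the pancreatic polypeptide gene that marks pp-like cells, took only 0.0199% to 0.0479% of beta-like UMIs. How much of that was free RNA or came from mixed cells was not tested. In likeness to Ins1, Ins2 ranked 27 and Iapp 91, while in likeness to Ins2, Ins1 ranked 2574 and Iapp 67. With 4 points per gene this is a description.

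Across beta-like cells within a library, likeness was the lowest Spearman's rho over the 4 libraries among 877 genes detected in at least 25% of thinned cells. Ssr4, a subunit of the translocon-associated complex, came out on top for both insulin genes. Its rho with Ins2 was 0.30 for imeglimin and 0.28 for vehicle at 11.1 mM, and 0.51 and 0.23 at 3.9 mM. Prss53, Ero1lb, Nme2 and Scg2 followed for Ins1, and Scg5, Cst3, Selenok and Resp18 for Ins2, with lowest values from 0.14 to 0.19. For Iapp the genes were Cd63, Ppia, Cox8a, Chchd2 and Bex2, and the lowest rho was 0.16 at most.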

How the data were processed

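The deposited files hold raw UMI counts per gene and cell barcode, made by the authors with Cell Ranger 6.0.2 on mm10, per the submitters' processing notes. Barcodes were kept at 1000 UMIs or more and 500 genes or more, unless mitochondrial genes took over 20% of UMIs. Each library was clustered alone with scanpy 1.11.5 on 2000 variable genes without Ins1, Ins2 and Iapp (30 components, 15 neighbours, Leiden resolution 1), and clusters were named from markers when 3 or more were detected. Ambiguous clusters stayed unnamed. UMIs were summed over beta-like cells and scaled with TMM (edgeR 4.0.16) to CPM. Genes at 20 CPM or more in either library were compared, and at least 1.5-fold apart was used as a measure of size, with no test. Ratio intervals are exact 95% Poisson intervals, shares exact binomial ones. The ratio calculation was tested on simulated data. Named genes are the 3 members, up to 4 genes per list and comparison with the largest log2 ratio, and 5 genes per likeness measure. Clusters are called by a leading gene, and those described were chosen after their values were seen. Members and gene lists were chosen with earlier results of these data known, and details of cluster naming were set after seeing the clusters. Alternatives covered scaling, thinning, stricter cell limits, clustering, doublet scores and subtraction of free RNA. Positions come from GENCODE vM21, which held 99.8% of the deposited gene IDs.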

Additional observations from a re-analysis of the deposited data

Results flagged for a closer look

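In beta-like cells both insulin genes had imeglimin to vehicle ratios of opposite sign at the 2 glucose levels. For Ins1 the log2 ratio was -0.52 at 11.1 mM and 1.03 at 3.9 mM, and for Ins2 it was -0.10 at 11.1 mM and 1.22 at 3.9 mM. The difference was not tested, since each condition is 1 library, and the Ins2 value at 11.1 mM is close to 0. Beside it, the imeglimin 3.9 mM library had the highest insulin in non-endocrine cells (1.56% in the median cell, where the others had 0.360% to 0.383%) and the widest spread of insulin between beta-like clusters. The part of these in the difference was not tested.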

How the results depend on the processing

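With 13 alternatives for each log2 ratio, Ins1 and Ins2 kept their sign in all 4 comparisons. Ins1 at 11.1 mM ran from -0.69 to -0.44 for imeglimin against vehicle and Ins2 from -0.27 to -0.02. At 3.9 mM Ins1 ran from 0.44 to 1.33 and Ins2 from 0.92 to 1.42. With imeglimin, 11.1 against 3.9 mM gave 1.66 to 2.85 for Ins1, 0.25 to 0.83 for Ins2 and 0.79 to 1.07 for Iapp. With vehicle it gave 2.94 to 3.90, 1.29 to 1.89 and 0.56 to 1.13. The member counts between glucose levels were 2 to 3 under all alternatives. Iapp between imeglimin and vehicle was near 0 and its sign varied, from -0.15 (CPM without members and mitochondrial genes) to 0.11 (free RNA subtracted) at 11.1 mM and from -0.24 (plain CPM) to 0.11 (free RNA subtracted) at 3.9 mM. It was also below 0 at 11.1 mM with plain CPM, median-of-ratios factors and thinning. The number of members 1.5-fold apart between imeglimin and vehicle at 11.1 mM was 0, and 1 (Ins1) with CPM without members and mitochondrial genes, with cells thinned to 3000 UMIs and for the median cell. At 3.9 mM it was 2, and 1 for the median cell, an alternative added after seeing the data. The cause was not tested. Plain CPM lowered the median log2 ratio of all genes by 0.30 at 3.9 mM, by 0.12 between glucose levels with imeglimin and by 0.40 with vehicle, and the ratios above move with it. The Ins1 share of insulin UMIs ran from 25.3% to 26.3% with imeglimin and from 32.1% to 32.5% with vehicle at 11.1 mM, and from 9.25% to 12.1% and 12.2% to 13.4% at 3.9 mM. Iapp per 100 insulin UMIs ran from 32.2 to 32.9, 26.8 to 27.9, 25.4 to 28.6 and 56.8 to 66.3. No paired analysis was possible because each condition has 1 library. Adding 495 cells with vehicle at 11.1 mM and 401 with vehicle at 3.9 mM, held out by the B-cell marker Cd79a and added after seeing the data, left every member count as it was. Depth did not limit detection of the members in beta-like cells, but some values moved with it. Ins1 at 11.1 mM passed the 1.5-fold limit after thinning. In cells of 1000 to 5000 UMIs at 11.1 mM it took 6.76% with imeglimin and 7.61% with vehicle. Free RNA limits what can be read from low insulin in other classes.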

Other observations

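A few vehicle cells at 3.9 mM stood apart from the rest of their library. The 37 beta-like cells with over 40% insulin had 26.6% Ins1 among their insulin UMIs and 16.0 Iapp UMIs per 100 UMIs of other genes, where all beta-like cells of that library had 13.1% and 7.71. Cells over 40% insulin had 26.1% and 15.5 with imeglimin at 11.1 mM (387 cells), near the values of the 37 cells. With vehicle at 11.1 mM the values over 40% insulin were 31.2% and 20.1, and with imeglimin at 3.9 mM 16.3% and 10.7 (523 cells). The 37 cells were 0.891% of the beta-like cells with vehicle at 3.9 mM.

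A cluster of 396 unnamed cells with imeglimin at 11.1 mM was led by Sst and held 9.76% insulin in its median cell at 17953 UMIs, deeper than the 6092 UMIs of delta-like cells in that library. Other unnamed clusters with Gcg, Sst or Rbp4 as the first gene held 18.2% insulin in the median cell with imeglimin at 11.1 mM (211 cells), 23.4% with vehicle at 11.1 mM (486 cells), 8.35% with imeglimin at 3.9 mM (552 cells) and 5.31% and 4.22% with vehicle at 3.9 mM (409 and 399 cells). Not all such clusters were rich in insulin. A cluster led by Arg1, with Sst and Gcg next, held 0.270% with vehicle at 11.1 mM (116 cells). Another, led by Ppy, held 0.510% with imeglimin at 3.9 mM (522 cells). Whether these are doublets was not tested.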
